A study of Rattus norvegicus with 5 samples.

Results

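Expression of 10 genes of the transforming growth factor beta (TGF-beta) superfamily was measured in the fat around the rat pancreas: the ligand genes Gdf10, Inhbb, Inhba, Bmp2, Bmp4, Bmp6, Tgfb1, Tgfb2 and Tgfb3, and Fst, which encodes the activin-binding protein follistatin. Every probe set annotated with exactly 1 of these symbols was taken, 17 of the 31099 probe sets on the array. The genes were selected on family membership and with the diet differences on these same arrays already known, Gdf10 and Inhbb because they differed in opposite directions. Differences between diets are therefore given for these 10 genes as a description, with no test.

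Tissue came from 2 male Wistar rats fed a cafeteria diet, the obese group of the labels, and from 3 male Wistar rats fed standard chow, the lean group. Fat supplied 66% of the calories of the cafeteria diet and 8% of those of the standard chow. Either diet was given for 30 days to animals that were 7 weeks old at the start and caged singly. Mesenteric fat next to the pancreas was frozen, and its total RNA was hybridised to 1 Affymetrix rat genome expression array per independent sample. Values are log2 expression levels, so a difference of 1 is a doubling.

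Ligands of this superfamily are secreted as dimers and bind pairs of type I and type II receptor kinases at the cell surface. TGF-betas and activins mainly activate the transcription factors Smad2 and Smad3, bone morphogenetic proteins (BMPs) mainly Smad1, Smad5 and Smad9, and both branches use the shared partner Smad4. In fat, BMPs are known for bringing precursor cells towards the fat cell fate, and TGF-betas for restraining that step and for raising matrix production.

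The promoters of Gdf10 and Inhbb are shown because these are the genes whose levels stood furthest apart between the diets. Each stretch is the 250 bases before the gene's start in RefSeq on the rat build GRCr8, read 5′ to 3′ on the gene's strand. Capitals mark matches, on either strand, to the SMAD box CAGAC or to GGCGCC, a GC-rich sequence also bound by SMAD proteins. The Gdf10 promoter lies at chr16:9243262-9243511 on the plus strand, and the Inhbb promoter at chr13:33089374-33089623 on the minus strand.
Gdf10: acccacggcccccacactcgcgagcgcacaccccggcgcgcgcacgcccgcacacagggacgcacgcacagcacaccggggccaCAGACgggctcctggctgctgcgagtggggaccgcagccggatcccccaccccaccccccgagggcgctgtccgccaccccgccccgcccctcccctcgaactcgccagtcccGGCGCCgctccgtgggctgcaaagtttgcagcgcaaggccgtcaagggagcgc
Inhbb: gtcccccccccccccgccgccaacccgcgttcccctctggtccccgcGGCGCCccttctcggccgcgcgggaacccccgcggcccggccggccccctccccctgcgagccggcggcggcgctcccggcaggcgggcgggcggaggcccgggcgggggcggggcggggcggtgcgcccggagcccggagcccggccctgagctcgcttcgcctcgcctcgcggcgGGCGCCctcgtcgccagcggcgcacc

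Counted back from the start, GGCGCC begins at base -53 in Gdf10 and at bases -203 and -26 in Inhbb. CAGAC begins at base -166 in Gdf10 and has 0 matches in this stretch of Inhbb. Over the 33469 RefSeq promoter windows of the same length, 8.69% held GGCGCC and 42.9% held CAGAC on at least 1 strand. The letters G and C made up 76.0% of the Gdf10 stretch and 86.8% of the Inhbb stretch, against a median of 51.2% over all windows, and 0.0627% of windows were at least as rich in them as Inhbb. Windows were matched by symbol for 8 of the 10 genes, and not for Bmp2 or Fst. Among those 8, GGCGCC was found only in Gdf10 and Inhbb, and CAGAC only in Gdf10 and Bmp4. Gdf10 and Inhbb were also the richest of the 8 in G and C, the others lying between 43.6% and 66.4%. The share of 8.69% is over windows of any composition. Whether base composition alone gives the GGCGCC matches was not tested.

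The tissue carried the markers of fat on every array: adiponectin (Adipoq) read 13.11 and 13.28 in the cafeteria samples, against 12.94, 13.09 and 13.08 in the standard samples. The array of standard replicate 1 held pancreatic acinar transcripts, with 13 of 16 acinar genes more than 2 log2 units above every other array and a list mean of 8.24 there, against 4.36 to 4.61 on the other 4. Standard replicate 3 was highest of the 5 arrays for 9 of 11 smooth muscle and pericyte genes. The 2 cafeteria arrays differed in mesothelial genes, markers of the lining of the abdominal cavity: all 9 measured were higher in cafeteria replicate 1, with list means of 9.60 and 8.75 in cafeteria replicates 1 and 2, against 9.04 to 9.22 in the standard samples. In whole tissue, fewer cells of a type and less RNA per cell cannot be told apart. Fitted over all 21729 probe sets above a filter on dim signal, limma called 0% at an adjusted p of 0.05, with 2754 at an unadjusted p under 0.05 and 0 called without moderated variance.

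Of the 17 probe sets, 16 passed the filter and all 10 genes had at least 1 that did. Means were higher in cafeteria samples for 5 of the 17 and lower for 12. The arrays of the diets did not overlap for 4, with cafeteria higher for 2 (Inhbb and a Bmp2 probe set) and lower for 2 (Gdf10 and a Tgfb2 probe set). Over all 21729 probe sets, the cafeteria arrays lay above all standard arrays for 13.3% and below them for 14.1%. The median difference of the 16 that passed was -0.17, against -0.0036 over all probe sets tested. Since the genes were chosen on this comparison, nothing is read from these shares or medians.

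**Figure D1:**
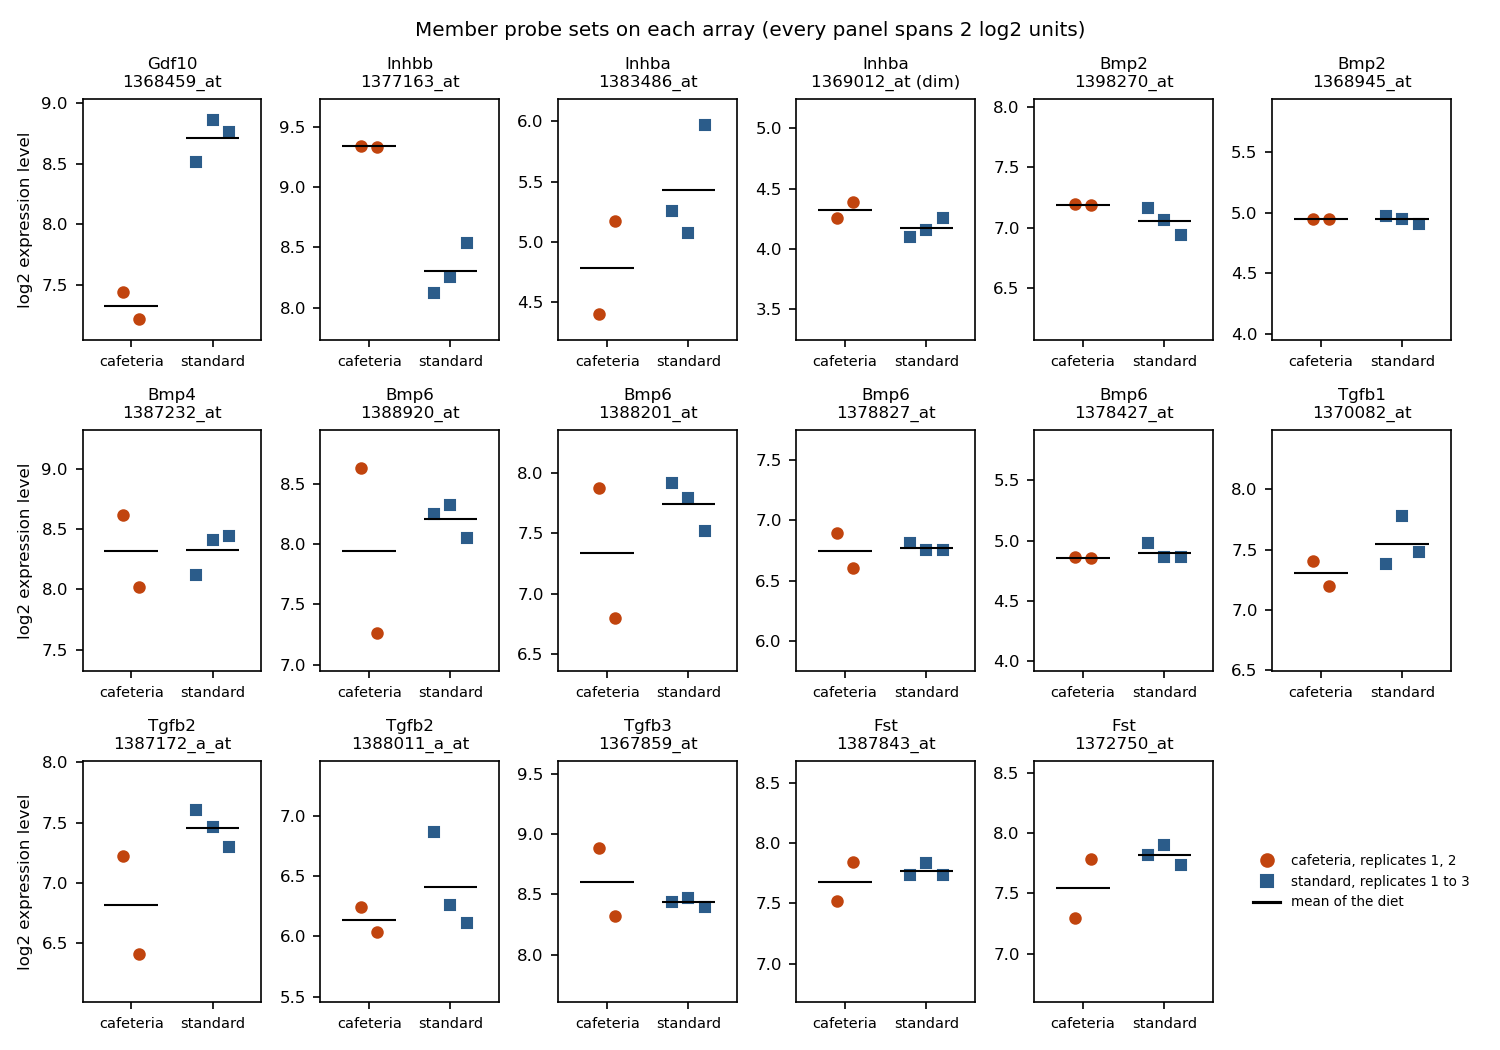
Log2 expression level of each of the 17 probe sets on each array, with cafeteria samples (circles) left of standard samples (squares) and a line at the mean of each diet; every panel spans 2 log2 units, and the levels of different panels are not comparable. Gdf10 and Inhbb show the widest separation between diets, and Bmp6 shows cafeteria arrays at 8.63 and 7.26 on either side of the standard arrays.

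Inhbb encodes the beta B subunit, whose homodimer is activin B. Its probe set 1377163_at read 9.34 and 9.33 in cafeteria samples, against 8.12, 8.25 and 8.54 in standard samples. Both cafeteria arrays lay above every standard array and next to each other, while the standard arrays spread over 0.42. The means were 9.34 ± 0.0048 (SD, n = 2) in cafeteria and 8.30 ± 0.21 (SD, n = 3) in standard samples, a difference of 1.03 ± 0.14 (SE) on the log2 scale or 2.05-fold. Leaving out single arrays kept it between 0.94 and 1.15. Most fat cell markers lay on the same side: 8 of 10 adipocyte genes were higher on both cafeteria arrays than on any standard array. Over all probe sets tested that share was 13.3%. The adipocyte gene Cfd went the other way, at 13.15 and 13.31 in cafeteria samples, against 13.59 to 13.67 in standard samples. The adipocyte list means were 11.98 and 12.17 in cafeteria samples, against 11.57 to 11.72 in standard samples. The fibroblast and adipose progenitor list means were higher too, at 10.98 and 10.97 in cafeteria samples, against 10.68 to 10.79 in standard samples. Of these genes, 3 of 9 lay above every standard array on both cafeteria arrays, against the same 13.3%. The part of these cells in the Inhbb difference was not tested.

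Inhba encodes the beta A subunit of activin A, and its probe sets disagreed. The brighter, 1383486_at, read 4.40 and 5.17 in cafeteria samples, against 5.25, 5.07 and 5.97 in standard samples. The diets overlapped, with cafeteria replicate 1 lowest and standard replicate 3, the array high in smooth muscle genes, highest. The part of those genes was not tested. Its difference of -0.64 ± 0.37 (SE) shrank to -0.26 with cafeteria replicate 1 left out and to -0.38 with standard replicate 3 left out, and was -1.03 with cafeteria replicate 2 left out. The other probe set, 1369012_at, was too dim to pass the filter. It read 4.25 and 4.39 in cafeteria samples, against 4.10, 4.16 and 4.25 in standard samples, a difference of 0.15. The brighter Inhba probe set had a difference opposite in sign to that of Inhbb, and the dim one had the same sign as Inhbb. Even the brighter one was faint, its lowest value of 4.40 lying near the filter cut of 4.28.

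Fst encodes follistatin, which binds activins and keeps them from their receptors. Probe set 1387843_at read 7.52 and 7.84 in cafeteria samples, against 7.74, 7.83 and 7.74 in standard samples. Probe set 1372750_at read 7.30 and 7.79 in cafeteria samples, against 7.82, 7.90 and 7.74 in standard samples. Both had their lowest value on cafeteria replicate 1, and the diets overlapped on both. The differences were -0.09 ± 0.11 and -0.28 ± 0.16 (SE), and both rested on that array: without it they were 0.08 and -0.03, and without cafeteria replicate 2 they were -0.25 and -0.52. After centring each on its own mean, the 2 probe sets stood 0.11 log2 units apart (root mean square over the 5 arrays).

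Gdf10, also named Bmp3b, encodes a ligand close to Bmp3 that has been described in mouse cells as a brake on fat cell formation. Its only probe set, 1368459_at, read 7.43 and 7.21 in cafeteria samples, against 8.51, 8.86 and 8.76 in standard samples. The highest cafeteria array lay more than 1 log2 unit below the lowest standard array. The means were 7.32 ± 0.16 (SD, n = 2) in cafeteria and 8.71 ± 0.18 (SD, n = 3) in standard samples, a difference of -1.39 ± 0.14 (SE), or 2.62-fold lower in cafeteria samples. It lay between -1.50 and -1.28 when single arrays were left out, and at -1.49 without the array that held acinar transcripts. Endothelial markers lay on the same side, with 6 of 11 genes lower on both cafeteria arrays than on any standard array. Over all probe sets tested that share was 14.1%. The endothelial list means were 8.47 and 8.95 in cafeteria samples, against 9.12 to 9.25 in standard samples. T cell list means were lower too, at 5.67 and 5.16 in cafeteria samples, against 5.68 to 6.16 in standard samples. Of the T cell genes, 3 of 9 lay below every standard array on both cafeteria arrays, against the same 14.1%. Within the cafeteria samples, Gdf10 and the T cell list mean were lower in replicate 2, and the endothelial list mean was lower in replicate 1. The part of these cells in the Gdf10 difference was not tested. An absolute difference of 1 or more was measured for 0.833% of all probe sets tested and, among the 16 here, for Gdf10 and Inhbb. Because the genes were chosen with these differences known, nothing is read from that share.

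**Figure D2:**
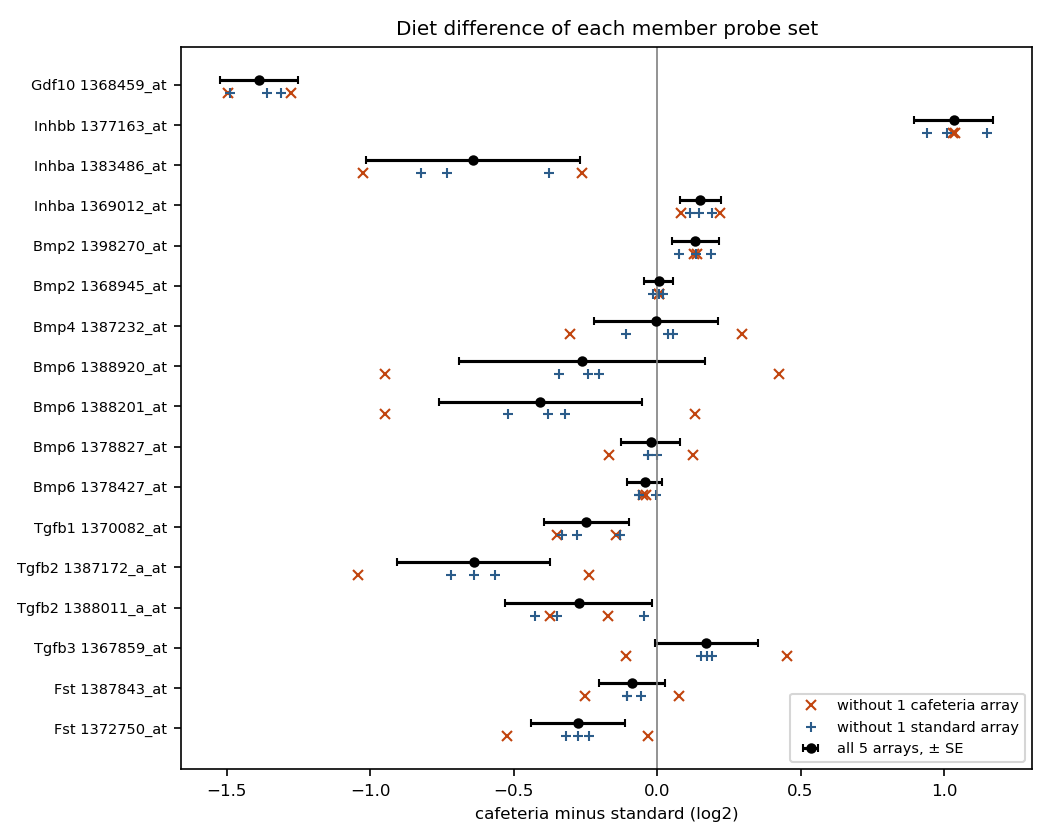
Difference between diets (cafeteria minus standard, log2) for each probe set, as a black point with its standard error over all 5 arrays and as crosses with 1 cafeteria or 1 standard array left out. Gdf10 at -1.39 and Inhbb at 1.03 keep their side in every omission, while the Bmp6 probe set 1388920_at moves between -0.95 and 0.42.

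Bmp2, a ligand that drives bone and early fat cell commitment, showed little spread. Probe set 1398270_at read 7.19 and 7.19 in cafeteria samples, against 7.17, 7.06 and 6.94 in standard samples. The cafeteria arrays lay above the standard arrays by a margin far smaller than the spread of the standard arrays, 0.23, and the mean difference was 0.13 ± 0.08 (SE). Probe set 1368945_at read 4.95 on both cafeteria arrays and between 4.91 and 4.98 in standard samples, a difference of 0.0052. Exactly equal values recurred between arrays in this probe set, as in 46.7% of all probe sets tested.

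Bmp4 brings mesenchymal precursors towards the fat lineage. It read 8.62 and 8.02 in cafeteria samples, against 8.12, 8.41 and 8.44 in standard samples. The cafeteria arrays were the highest and the lowest of the 5, and the means were 8.32 ± 0.42 (SD, n = 2) in cafeteria and 8.33 ± 0.18 (SD, n = 3) in standard samples. The difference was -0.30 when cafeteria replicate 1 was left out and 0.29 when cafeteria replicate 2 was. A mean difference of -0.0048 ± 0.22 (SE) does not show that the levels were equal.

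Bmp6 is best known for raising hepcidin in the liver and for acting on brown and white fat precursors. It had 4 probe sets that passed the filter. The brightest, 1388920_at, read 8.63 and 7.26 in cafeteria samples, against 8.25, 8.32 and 8.05 in standard samples. Probe set 1388201_at read 7.88 and 6.80 in cafeteria samples, against 7.92, 7.80 and 7.52 in standard samples. Both placed cafeteria replicate 2 far below every other array. Their differences, -0.26 ± 0.43 and -0.41 ± 0.35 (SE), became -0.95 and -0.95 with cafeteria replicate 1 left out, and 0.42 and 0.13 with cafeteria replicate 2 left out. The fainter probe sets had narrow spreads: 1378827_at read 6.90 and 6.60 in cafeteria samples, against 6.75 to 6.81 in standard samples, and 1378427_at stayed between 4.85 and 4.98 on all 5 arrays. The bright pair differed from each other by 0.14 (root mean square of centred values), and from the faint pair by 0.33 to 0.45.

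Tgfb1, the ligand most studied in fibrosis, read 7.41 and 7.20 in cafeteria samples, against 7.38, 7.78 and 7.48 in standard samples. The diets overlapped at the lowest standard array, and the difference was -0.25 ± 0.15 (SE), between -0.35 and -0.13 with single arrays left out. Tgfb3 read 8.89 and 8.32 in cafeteria samples, against 8.43, 8.47 and 8.39 in standard samples. Again the cafeteria arrays enclosed the standard arrays, which lay within 0.08 of each other. The Tgfb3 difference was 0.17 ± 0.18 (SE). It became -0.11 with cafeteria replicate 1 left out and 0.45 with cafeteria replicate 2 left out.

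Tgfb2 had 2 probe sets, both of a kind that can read several transcripts of the gene. Probe set 1387172_a_at read 7.22 and 6.41 in cafeteria samples, against 7.61, 7.46 and 7.30 in standard samples. Both cafeteria arrays lay below the standard arrays, cafeteria replicate 1 by a small margin only, and the difference of -0.64 ± 0.27 (SE) shrank to -0.24 with cafeteria replicate 2 left out and was -1.04 with the other one left out. Probe set 1388011_a_at read 6.24 and 6.04 in cafeteria samples, against 6.87, 6.26 and 6.11 in standard samples. Here the highest array was standard replicate 1, the one with acinar transcripts, and the difference of -0.27 ± 0.26 (SE) was -0.05 without it. The part of acinar RNA in that value was not tested.

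The gap between the 2 cafeteria arrays comes from the same values that were known when the genes were chosen. It is given as a description. It exceeded 0.5 log2 units for 6 of the 16 probe sets that passed the filter, against 8.86% of all probe sets tested. The 6 are not independent, as they include 2 Bmp6 probe sets that differed by 0.14 (root mean square of centred values). Other probe sets of the same genes had smaller gaps: 0.29 and 0.0081 for Bmp6, 0.20 for Tgfb2 and -0.13 for the dim Inhba probe set. In 5 of the 6 the higher array was cafeteria replicate 1: Bmp6 by 1.37 and 1.08, Tgfb2 by 0.81, Bmp4 by 0.60 and Tgfb3 by 0.56. In the sixth, Inhba, cafeteria replicate 1 was lower by 0.77. The direction of the first 5 is that of the mesothelial genes, whose gaps ran from 0.10 to 1.25 with a median of 1.03, and of the T cell genes, 9 of 9 of which were higher in cafeteria replicate 1 with a median gap of 0.48. Macrophage genes were higher there for 6 of 8, with a median gap of 0.24. Endothelial genes went the other way in 11 of 11, with a median gap of -0.42, and adipocyte genes in 9 of 10, with a median gap of -0.17. Smooth muscle and pericyte genes were lower in cafeteria replicate 1 for 7 of 11 and fibroblast and progenitor genes for 6 of 9. The part of these cells in the ligands' values was not tested. A gap as large as that of the brightest Bmp6 probe set occurred in 0.584% of probe sets, whereas the Inhbb gap of 0.0068 was exceeded or equalled by 89.7%.

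**Figure D3:**
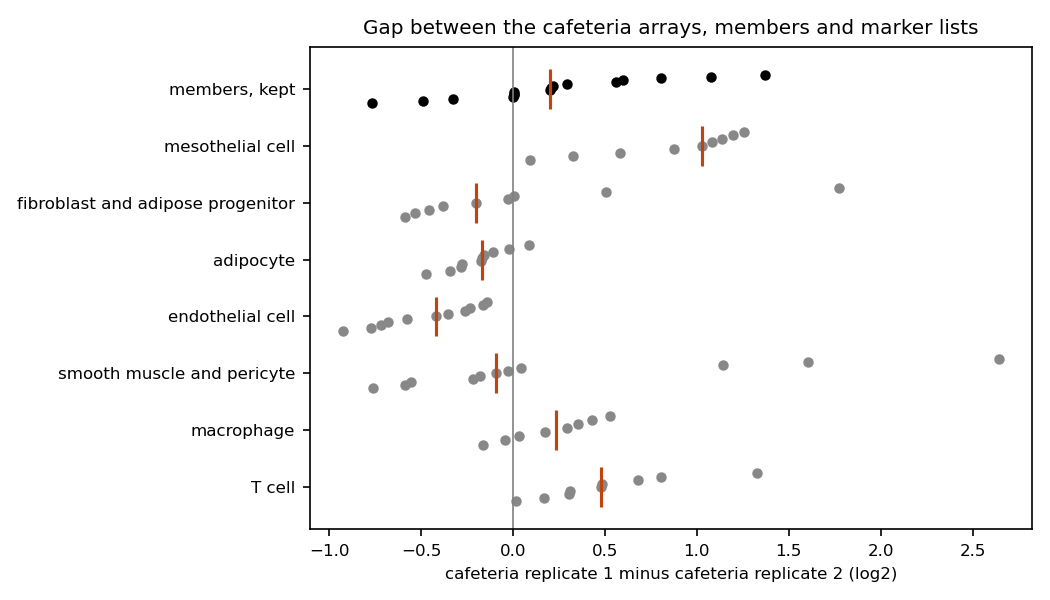
Cafeteria replicate 1 minus cafeteria replicate 2 (log2) for the 16 ligand and follistatin probe sets that passed the filter (black) and for marker genes of 7 cell types (grey), 1 point per probe set or gene, with a line at each median. The mesothelial genes all lie right of 0, between 0.10 and 1.25, and 2 Bmp6 probe sets lie at 1.08 and 1.37. The smooth muscle and pericyte list and the fibroblast list reach 2.64 and 1.77, with medians of -0.09 and -0.20.

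Over the 5 arrays, the profiles most like that of Gdf10 among 11499 other genes, by root mean square distance between centred log2 values, were those of Slfn4 at 0.16, Akr1c15 at 0.17, Snap25 at 0.18 and Wipf3 at 0.18. All 4 read lower on both cafeteria arrays than on any standard array, Slfn4 at 8.26 and 7.80 in cafeteria samples, against 9.06, 9.83 and 9.59 in standard samples. The profiles most like that of Inhbb were those of Gcsh at 0.10, Nkain1 at 0.11, Acyp2 at 0.12 and C10h17orf58 at 0.13. Gcsh, a protein of the glycine cleavage system, read 10.51 and 10.50 in cafeteria samples, against 9.40, 9.68 and 9.73 in standard samples. As these profiles were picked for likeness, their differences between diets, -1.46 to -1.09 for the first 4 and 0.90 to 1.10 for the others, follow from that choice.

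The other genes of the pathway were 125 receptors, SMAD proteins, regulators, targets and further ligands on 10 lists. Of these 99 were on the array and 85 passed the filter, each read by its brightest probe set. Cafeteria means were higher for 40 and lower for 45, with a median difference of -0.0071 against -0.0027 over all 11509 genes. In limma, 0 of the 85 passed an adjusted p of 0.05 in either direction, as was the case for 0% of all genes, and the smallest adjusted p was 0.222. At an unadjusted p under 0.05 there were 10 higher and 7 lower, against 6.73% of all genes higher and 6.88% lower. The values that follow describe the genes with the smallest p of each list, and none passed the test.

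**Figure D4:**
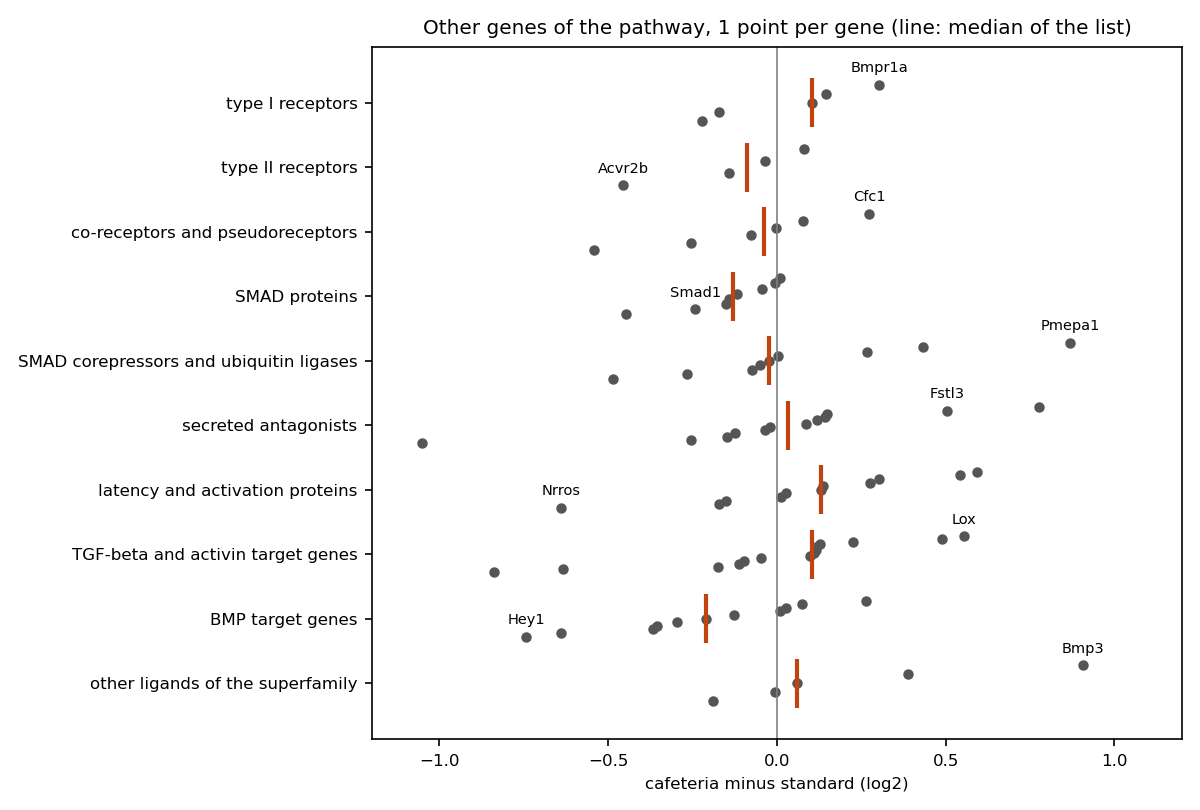
Difference between diets (cafeteria minus standard, log2) for 85 genes of the pathway, 1 point per gene, by list, with a line at each list's median and the gene with the smallest p named. The points range from -1.05 (Grem1) to 0.91 (Bmp3), and 0 passed the test over all probe sets.

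Among type I receptors, 3 of 5 had higher and 2 lower means. Bmpr1a, a BMP receptor, read 8.73 and 8.78 in cafeteria samples, against 8.57, 8.40 and 8.38 in standard samples, a difference of 0.30 ± 0.08 (SE) with a limma adjusted p of 0.301. Tgfbr1, the TGF-beta type I receptor, differed by -0.17 ± 0.05 (limma adjusted p = 0.346), and Acvrl1, an endothelial receptor, by -0.22. Acvr1c, the fat cell receptor ALK7, was named after its values were seen, because activin B is among its ligands: it read 9.19 and 10.14 in cafeteria samples, against 9.50, 9.62 and 9.44 in standard samples, with the cafeteria arrays on either side of the standard ones. Among type II receptors, 1 of 4 was higher and 3 lower. The activin receptor Acvr2b read 5.09 and 5.05 in cafeteria samples, against 5.34, 5.66 and 5.58 in standard samples (-0.46 ± 0.11, limma adjusted p = 0.281), and its relative Acvr2a differed by -0.14. Amhr2, the receptor of anti-Müllerian hormone, differed by 0.08.

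Co-receptors and pseudoreceptors had 2 higher and 4 lower of 6. Bambi, a pseudoreceptor that dampens TGF-beta and BMP signals, read 7.05 and 6.24 in cafeteria samples, against 7.37, 7.18 and 7.00 in standard samples, with the low value on the same array as Bmp6. Tgfbr3, which presents TGF-beta to its receptors, differed by -0.25, and Cfc1, a co-receptor of Nodal, by 0.27. The Cfc1 values, 4.34 to 4.71, lay near the filter cut of 4.28. SMAD proteins had 1 higher and 7 lower of 8, with a median of -0.13. Smad1 differed by -0.24 ± 0.09 (limma adjusted p = 0.372), Smad5 by -0.15 and the common partner Smad4 by -0.14.

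SMAD corepressors and ubiquitin ligases had 4 higher and 5 lower of 9. Pmepa1, a TGF-beta-induced protein that limits SMAD activation, read 11.23 and 11.26 in cafeteria samples, against 10.32, 10.59 and 10.23 in standard samples. The diets did not overlap, and the difference was 0.87 ± 0.12 (SE, limma adjusted p = 0.224). The SMAD phosphatase Ppm1a differed by 0.43 ± 0.07 and the corepressor Tgif1 by -0.49 ± 0.14 (SE).

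Secreted antagonists were even, 6 higher and 6 lower of 12. Fstl3, which like follistatin binds activins, read 7.71 and 7.36 in cafeteria samples, against 6.83, 7.13 and 7.13 in standard samples, a difference of 0.50 ± 0.16 (SE, limma adjusted p = 0.340). Its second probe set gave 0.39, with the diets overlapping. The BMP regulator Bmper differed by 0.78 ± 0.36 and the follistatin relative Fstl1 by 0.15. For Bmper the diets overlapped, at 6.39 and 7.44 in cafeteria samples, against 5.89, 6.08 and 6.45 in standard samples. Grem1, a BMP antagonist named after its values were seen, differed by -1.05 ± 1.16 and read 6.90 on standard replicate 3 alone, against 3.34 to 4.98 on the other 4 arrays.

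Latency and activation proteins, which hold, cut or release the ligands, had 8 higher and 3 lower of 11. Nrros, which anchors latent TGF-beta on myeloid cells, read 8.80 and 8.93 in cafeteria samples, against 9.53, 9.66 and 9.32 in standard samples (-0.64 ± 0.12, limma adjusted p = 0.253). The proprotein convertase Pcsk6 differed by 0.54 ± 0.15, and fibrillin 1 (Fbn1), which tethers latent complexes in the matrix, by 0.30 ± 0.09 (SE).

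TGF-beta and activin target genes had 8 higher and 6 lower of 14, with a median of 0.10. Lox, the collagen crosslinking enzyme, read 10.08 and 9.49 in cafeteria samples, against 9.13, 9.35 and 9.22 in standard samples (0.56 ± 0.20, limma adjusted p = 0.371). Its second probe set gave 0.45 ± 0.23 (SE), with cafeteria replicate 2 and standard replicate 3 both at 8.37. The integrin gene Itgb5 differed by 0.22 and the collagen gene Col3a1 by 0.11. BMP target genes had 4 higher and 7 lower of 11, with a median of -0.21. Hey1, a transcription factor that also answers to Notch, read 7.30 and 7.50 in cafeteria samples, against 8.20, 8.03 and 8.21 in standard samples (-0.74 ± 0.10, limma adjusted p = 0.222). All 3 probe sets of Id4, an inhibitor of helix-loop-helix factors, lay lower on both cafeteria arrays, by -0.64, -0.60 and -0.52, and Zfp423, a factor of fat precursor cells, differed by 0.26. Of the lists, the targets share Acta2, Tagln and Col1a1 with the marker lists of smooth muscle and fibroblasts.

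Of 23 further ligand genes, 14 were on the array and 5 passed the filter. Bmp3, the closest relative of Gdf10, read 7.01 and 7.28 in cafeteria samples, against 6.63, 6.30 and 5.78 in standard samples. It was higher on both cafeteria arrays, by 0.91 ± 0.28 (SE, limma adjusted p = 0.336), where Gdf10 was lower. Gdf11 differed by -0.19 and the muscle growth inhibitor Mstn by 0.39, with Mstn values between 3.65 and 5.87 scattered across both diets.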

How the data were processed

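Expression was measured on 5 arrays, 2 from cafeteria and 3 from standard samples, grouped by diet as titled in the labels. The deposited values are log2 expression levels, 1 per probe set and array. Per the submitters' processing notes the authors used RMA and the affy package, versions not given. RMA makes array distributions alike, which can hide a shift shared by most transcripts. The p-values set the difference between diets against the spread within each diet. That spread is between these samples only, moderated over all probe sets, and 5 arrays limit precision.

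Without the array's 57 control probe sets, 21729 were kept whose mean over all arrays exceeded the 30th percentile. Diets were compared, cafeteria minus standard, with limma 3.58.1 (lmFit, eBayes; R 4.3.3; two-sided, Benjamini-Hochberg over all probe sets, threshold 0.05). The fit had 3 residual and 1.50 prior degrees of freedom. Standard errors are from this fit, or from the unfiltered fit for the dim Inhba probe set. The procedure was tested on simulated data. Symbols came from GEO's platform annotation, in which 20826 probe sets have 1 symbol, 436 have several and 9780 have none. The gene identifiers of 20758 were found in RefSeq's gene table, and 0 symbols changed. A pathway gene was read by its brightest probe set. Figures used matplotlib 3.10.9 in Python 3.11.15.

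The genes, lists and tests were chosen with earlier results of these data known. Named were all 10 genes, up to 3 of each pathway list with the smallest p, and the 4 profiles nearest Gdf10 and Inhbb. Alternatives were other filters, normalizations, variance models, weighting of arrays, exclusion of probe sets open to cross-hybridization, another gene summary, a replicate block and the omission of each array.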

Additional observations from a re-analysis of the deposited data

How the results depend on the processing

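The count of probe sets called was 0 in all 14 alternatives, with the smallest adjusted p between 0.0623 and 0.473, and likewise 0 for the pathway genes. An unadjusted p under 0.05 was reached by 2754 probe sets, and by 1981 to 4171 with single arrays left out, the most without cafeteria replicate 1. The median difference of the 17 ligand and follistatin probe sets, -0.09, lay between -0.17 and 0.0052 with single arrays left out. Over the 16 that passed the filter it was -0.17, and -0.19 with a replicate block, which called 0 probe sets. Only the standard samples had a replicate 3. The block fit therefore gave the same differences as leaving that array out, such as -1.36 for Gdf10 and 1.15 for Inhbb. No label says that equal replicate numbers mark shared animals or days: deviations of same-numbered samples correlated at 0.08 and -0.04. Diets did not overlap for 4 of the 17, against 27.4% of all probe sets tested. With fewer arrays compared both figures were higher: 14 without cafeteria replicate 1 (58.5% of all), 11 without cafeteria replicate 2 (55.2%), 7 without standard replicate 3 (38.1%), 5 without standard replicate 1 (35.4%) and 5 without standard replicate 2 (7600 of all 21729). Of 151 recomputed differences 15 changed sign: for Bmp6, Tgfb3 and Fst with a cafeteria array omitted, for Bmp6 1378827_at also under quantile normalization (0.03), and for Bmp4 and the faint Bmp2 probe set, both near 0, under several settings. None of these was a sign change of Gdf10, Inhbb, Inhba, Tgfb1 or Tgfb2. The cause of these shifts was not tested. With 2 cafeteria arrays, 1 animal decides the mean of Bmp4, Bmp6, Tgfb3 and Fst. The size of the Inhba and Tgfb2 differences also rested on 1 animal. With either cafeteria array left out, Inhba 1383486_at gave -1.03 or -0.26 and Tgfb2 1387172_a_at gave -1.04 or -0.24.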
